A study of Arabidopsis thaliana with 12 samples.

Results

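The 26S proteasome subunit genes of Arabidopsis thaliana were followed through leaf ageing in Col, the reference ecotype, and in gvs1-1. They are 35 loci, taken by locus identifier from a list of proteasome subunits, out of 19152 genes tested and 21266 loci in the authors' table. Of them, 19 encode the core particle (10 alpha and 9 beta subunits) and 16 the regulatory particle (7 RPT and 9 RPN subunits). All 35 were measured, and all 35 lay well above background on all 12 arrays. The list holds 1 gene for some subunits and both genes for others, so it is not a complete set of subunit genes.

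The 26S proteasome degrades proteins that carry ubiquitin chains. Its core particle is a barrel of stacked rings: the outer rings of alpha subunits gate the entrance, and the inner rings of beta subunits hold the proteolytic sites. The regulatory particle caps the barrel. Its RPT subunits are ATPases that unfold the substrate and open the gate, and its RPN subunits bind ubiquitin chains, remove them and hold the particle together. In ageing leaves, proteins of the chloroplast and the cytosol are broken down and their nitrogen is exported, and the proteasome works there beside autophagy and the vacuolar proteases.

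The 4 groups were Col at DAE14, Col at DAE28, gvs1-1 at DAE14 and gvs1-1 at DAE28, each with 3 biological samples on 1 one-colour array each. The labels do not spell out DAE. The third and the fourth leaf of soil-grown plants were collected in both genotypes. Growth lasted 23 and 37 days at 16 h of light per day, and collection was 5 h into the light period, as the labels state. For gvs1-1 the sources used here give neither the background nor the locus or lesion, so no transcript could be set against the genotype label. Levels below are log2 processed signals relative to the 75th percentile of the same array. A level belongs to its probe and is not compared between genes.

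Arrays of 1 group correlated at 0.972 to 0.992 across genes, which are not independent replicates. Before scaling, the arrays' 75th percentiles were 704 to 895 for young leaves and 1172 to 1577 for old ones, and 63.9% to 72.7% of probes were well above background. Slide 1 held the 3 Col DAE14 arrays and the first Col DAE28 array, slide 2 held the other 2 Col DAE28 arrays and 2 gvs1-1 DAE14 arrays, and slide 3 held the rest. Slides 1 and 3 were scanned on the same day. Leaf mesophyll markers (RBCS1A, LHCB2.2, RCA and CAB1) were well above background on all arrays, 4 of 4. Of 3 seed markers 0 passed the filter, and of 3 root and 4 flower and meristem markers 1 and 2 did, none of these on all arrays. The seed markers CRA1, SESA3 and OLEO1, the root markers SHV2 and EXPA7 and the flower and meristem markers AP3 and STM did not pass.

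Ageing in Col moved the 35 listed proteasome subunit genes little compared with the whole transcriptome. From DAE14 to DAE28, 7 members rose and 6 fell at an adjusted p under 0.05 (limma, Benjamini-Hochberg over all genes tested), and 0 of 35 changed by 2-fold or more and passed. Of all genes, 35.7% rose, 36.3% fell, 72.0% were called in either direction, and 40.3% were called with at least a 2-fold change. The members' log2 differences ran from -0.82 ± 0.15 in PAE2 to 0.86 ± 0.17 in RPT5B, and their median size was 0.19 against 0.77 over all genes. Over the 21 further subunit loci described below the median size was 0.50, and 2 passed with at least 2-fold. Of the 19152 genes tested, 16507 had a probe above background on every array, as all 35 members did. The 95% interval lay within 2-fold either way for 33 of 35 members, against 42.3% of all genes. The groups did not overlap for 15 members, against 75.5% of all genes. In whole leaves, fewer cells of a type and less RNA per cell cannot be told apart.

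**Figure D1:**
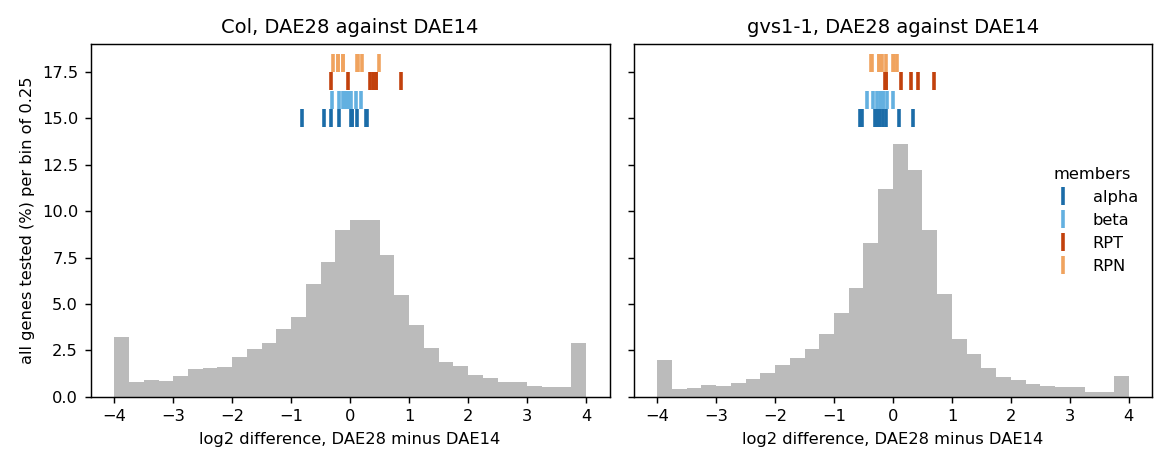
Log2 difference between DAE28 and DAE14 for all genes tested (grey bars, percent of genes per bin of 0.25, the outermost bins also holding values past 4 either way) and for the 35 members (coloured ticks by subunit class), with Col on the left and gvs1-1 on the right. The members lie between -0.82 and 0.86 in Col and between -0.56 and 0.69 in gvs1-1, near the centre of distributions that reach past 3 either way.

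Among the 10 alpha genes, 1 rose and 3 fell in Col. PAE2 (AT3G14290), 1 of 2 genes for the fifth alpha subunit, lay at 0.04, -0.07 and -0.07 on the Col DAE14 arrays and at -0.56, -0.89 and -1.11 on the Col DAE28 arrays. All DAE28 arrays were below all DAE14 arrays, and the drop was -0.82 ± 0.15 (SE, with 3 arrays at each stage; limma adjusted p = 0.00051). PAF2 (AT1G47250), a gene for the sixth alpha subunit, lay at 1.40, 1.55 and 1.39 at DAE14 and at 1.25, 0.90 and 0.86 at DAE28, again without overlap (-0.44 ± 0.12; limma adjusted p = 0.006). PAC1 (AT3G22110), for the third alpha subunit, went from 3.49, 3.70 and 3.47 to 3.22, 3.33 and 3.11, with every old leaf lower than every young one (-0.33 ± 0.10; limma adjusted p = 0.0099). PAB1 (AT1G16470), for the second alpha subunit, was the alpha gene that rose, from 0.61, 0.74 and 0.74 to 0.93, 1.01 and 0.93 without overlap (0.26 ± 0.10; limma adjusted p = 0.034). The most positive alpha difference was that of PAA2 (AT2G05840) at 0.29 ± 0.13, which did not pass (adjusted p = 0.066). The third of its DAE28 arrays, at 2.02, lay among the DAE14 arrays at 1.96, 2.05 and 2.03, while the other 2 stood above them at 2.50 and 2.38. The remaining 5 alpha genes, PAA1 (AT5G35590), PAD1 (AT3G51260), PAE1 (AT1G53850), PAF1 (AT5G42790) and PAG1 (AT2G27020), had differences from -0.19 to 0.11 and were not called.

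Of the 9 beta genes 1 was called in Col. PBE1 (AT1G13060) encodes a subunit with chymotrypsin-like activity, and it lay at -0.69, -0.50 and -0.56 at DAE14 and at -0.87, -0.75 and -1.02 at DAE28. These groups did not overlap, and the gene fell by 0.30 ± 0.11 (limma adjusted p = 0.032). The genes for the other catalytic subunits did not pass: PBA1 (AT4G31300), with caspase-like activity, differed by 0.01 ± 0.09, and PBB1 (AT3G27430) and PBB2 (AT5G40580), with trypsin-like activity, by -0.07 ± 0.08 and 0.10 ± 0.11. PBD1 (AT3G22630), a gene for a structural beta subunit, lay higher on each DAE28 array (2.05, 2.11 and 1.96) than on any DAE14 array (1.84, 1.90 and 1.86), but its difference of 0.18 ± 0.08 missed the threshold (adjusted p = 0.063). The beta genes spanned -0.30 to 0.18 in all.

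Of the 7 RPT genes 5 rose and 1 fell in Col, and their median difference was 0.39 beside 0.01 over all genes. RPT5B (AT1G09100), 1 of 2 genes for the fifth ATPase, lay at -1.02, -0.74 and -0.89 at DAE14 and at -0.10, 0.25 and -0.21 at DAE28. That was a rise of 0.86 ± 0.17 with no overlap (limma adjusted p = 0.00091). Its paralog RPT5A (AT3G05530) went from 3.12, 3.35 and 3.16 to 3.70, 3.56 and 3.37, also without overlap (0.33 ± 0.12; limma adjusted p = 0.024). RPT2a (AT4G29040), whose loss in Arabidopsis is known to enlarge organs and disturb the root meristem, lay at 3.36, 3.53 and 3.37 and then at 3.82, 4.01 and 3.72 (0.43 ± 0.11; limma adjusted p = 0.0042). Every DAE28 array was above every DAE14 array for this gene too. RPT3 (AT5G58290) rose by 0.44 ± 0.17 (limma adjusted p = 0.039), from 4.15, 4.42 and 4.29 to 5.08, 4.63 and 4.48, with the first DAE28 array far above the other 2. RPT1A (AT1G53750) went from 2.48, 2.66 and 2.42 to 2.87, 2.99 and 2.85 (0.39 ± 0.10; limma adjusted p = 0.0059), again with separate groups. RPT6A (AT5G19990) moved the other way, by -0.33 ± 0.12 (limma adjusted p = 0.034): its DAE28 arrays read 1.19, 0.75 and 0.80 against 1.31, 1.26 and 1.16, and the first of them lay inside the DAE14 range. RPT4A (AT5G43010), at -0.03 ± 0.11, was not called.

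Of the 9 RPN genes 1 rose and 1 fell in Col. AT5G23540, counted as an RPN subunit by the list and not named further by the annotation used, lay at 3.28, 3.57 and 3.32 at DAE14 and at 3.84, 3.98 and 3.84 at DAE28. The groups were separate, and the difference was 0.49 ± 0.11 (limma adjusted p = 0.0018). AT2G32730, likewise known here by its locus, fell by 0.28 ± 0.10 (limma adjusted p = 0.027), from 1.90, 2.04 and 1.94 to 1.74, 1.64 and 1.65 without overlap. The ubiquitin receptor gene RPN10 (AT4G38630) differed by 0.13 ± 0.11, the scaffold gene RPN1A (AT2G20580) by -0.13 ± 0.10, and the lid genes RPN5A (AT5G09900), RPN6 (AT1G29150) and RPN12a (AT1G64520) by -0.13 ± 0.10, 0.11 ± 0.14 and -0.21 ± 0.09. None of these passed, nor did RPN8A (AT5G05780) at -0.21 ± 0.14 or EMB2719 (AT1G20200) at 0.21 ± 0.12. RPN8A and RPN12a had separate groups all the same, with every DAE28 array lower.

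Groups were unevenly spread over slides. With slide as a block, 6 members rose and 1 fell in Col, and within slide 1, which holds 1 DAE28 array, 4 rose and 1 fell. Within the first scan day 6 rose and 1 fell. RPT5B and PAE2 were called in all 25 other settings tried, at 0.78 and -0.52 within slide 1 (limma adjusted p = 0.017 and 0.024). RPT6A stood at -0.06 and PAF2 at -0.20 there. Without Col DAE14 array 1 or 3 or Col DAE28 array 2, 4 members rose, and without Col DAE14 array 2 or Col DAE28 array 3, 3 fell; the calls of RPT3, RPT5A, RPT6A, PAB1, PBE1 and AT2G32730 each ended without some single array. Centring each array on its median instead of its 75th percentile moved the median of all genes in Col from 0.01 to 0.18, and with it the members to 11 rises and 1 fall. Relative to the median of all genes, which such a change of scale cannot move, the core median stood at -0.03 and the regulatory median at 0.11. Under quantile normalization they were -0.09 and 0.07, and under normexp -0.12 and 0.03.

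**Figure D2:**
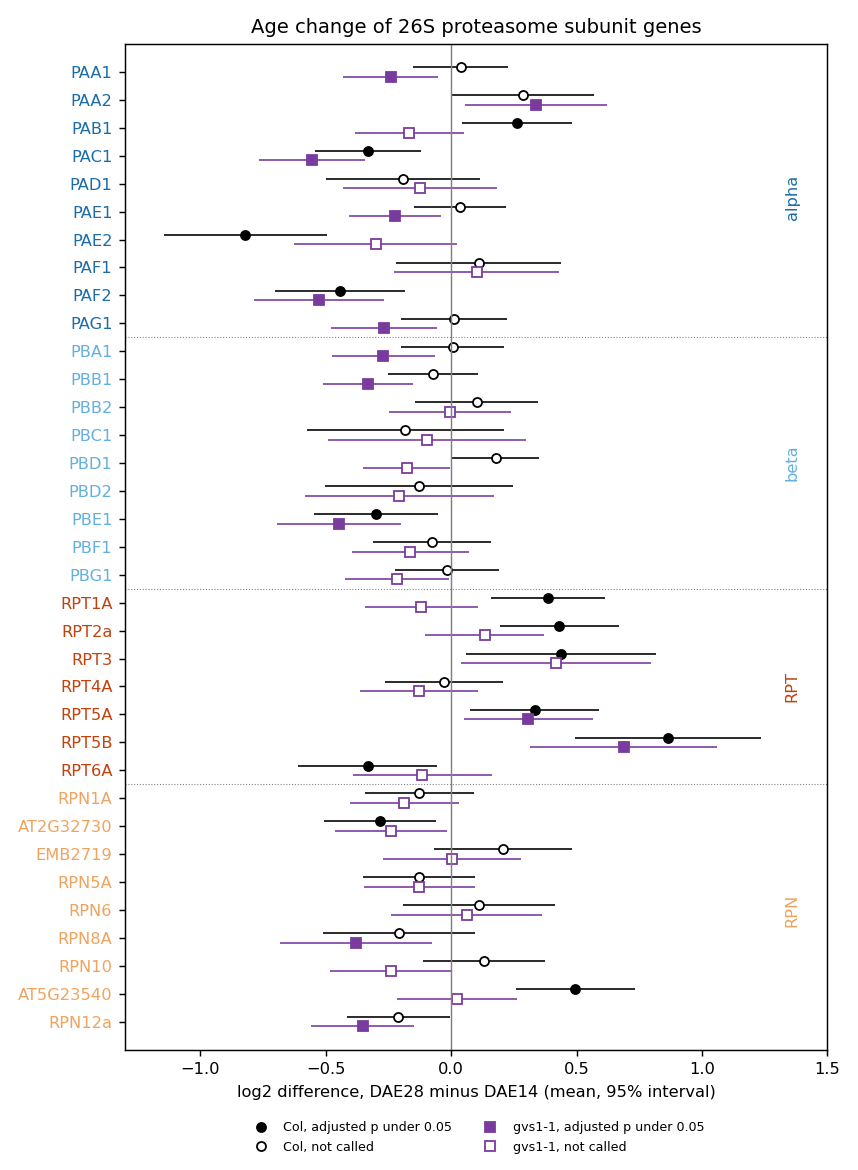
Log2 difference between DAE28 and DAE14 for each member (mean of 3 against 3 arrays, bars give the 95% interval), in Col (black circles) and gvs1-1 (purple squares); filled symbols passed an adjusted p under 0.05. RPT5B has the most positive and PAE2 the most negative value in Col, and most squares of the alpha and beta genes lie left of 0.

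In gvs1-1 leaves 8 of 19 core particle genes fell from DAE14 to DAE28 and 1 rose. Over all members, 3 rose and 10 fell, against 31.4% and 30.0% of all genes, with 61.4% called in either direction. The differences ran from -0.56 ± 0.10 in PAC1 to 0.69 ± 0.17 in RPT5B, and 0 of 35 passed with at least 2-fold, against 28.5% of all genes. Below 0 lay 26 of 35 members, against 46.8% of all genes, and 17 of these 26 were core genes. The interval stayed within 2-fold for 34 of 35 members, against 51.4%. The groups were separate for 21 members, 17 of them lower, against 68.8% of all genes separate in either direction.

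Of the 10 alpha genes 5 fell and 1 rose in gvs1-1. PAC1 lay at 3.53, 3.67 and 3.58 at DAE14 and at 2.99, 3.09 and 3.04 at DAE28, well separated (-0.56 ± 0.10; limma adjusted p = 0.00063). PAF2 went from 1.52, 1.60 and 1.46 to 0.91, 0.98 and 1.12, without overlap (-0.53 ± 0.12; limma adjusted p = 0.0029). PAA1 went from 1.07, 1.18 and 1.14 to 0.86, 0.84 and 0.97 (-0.24 ± 0.09; limma adjusted p = 0.031). PAE1 and PAG1 fell by 0.22 ± 0.08 and 0.27 ± 0.09 (limma adjusted p = 0.038 and 0.031), each with separate groups. PAA2 was the core gene that rose, from 1.74, 1.95 and 2.04 to 2.25, 2.21 and 2.28 (0.34 ± 0.13; limma adjusted p = 0.041). All its DAE28 arrays stood above all DAE14 arrays. PAE2, the gene with the largest fall in Col, differed by -0.30 ± 0.15 here and was not called (adjusted p = 0.097), with DAE28 arrays at -0.72, -0.66 and -0.33 below DAE14 arrays at -0.28, -0.29 and -0.25. A second kept probe of PAE2 did pass, at -0.41 ± 0.09 (limma adjusted p = 0.0035), so this result depends on the probe taken.

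All 9 beta genes had differences below 0 in gvs1-1, from -0.45 to 0.00 after rounding, and 3 of them fell. PBE1 lay at -0.63, -0.46 and -0.28 at DAE14 and at -0.89, -0.93 and -0.90 at DAE28, separate groups with a difference of -0.45 ± 0.11 (limma adjusted p = 0.0054). PBB1 went from 2.27, 2.21 and 2.08 to 1.85, 1.80 and 1.91 (-0.33 ± 0.08; limma adjusted p = 0.0049). PBA1 went from 3.57, 3.56 and 3.57 to 3.21, 3.29 and 3.38 (-0.27 ± 0.09; limma adjusted p = 0.027). These 3 genes stand for the 3 proteolytic activities of the core, and each had all DAE28 arrays below all DAE14 arrays. With slide as a block PBE1 passed, and PBA1 and PBB1 did not. Under quantile normalization PBA1 stood at 0.0006. PBB2, the other gene with trypsin-like activity, stood at -0.004. The other 6 beta genes, PBB2, PBC1 (AT1G21720), PBD1, PBD2 (AT4G14800), PBF1 (AT3G60820) and PBG1 (AT1G56450), lay between -0.22 and 0.00 and were not called.

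On the regulatory side, 2 of 7 RPT genes rose in gvs1-1 and 2 of 9 RPN genes fell. RPT5B went from -0.77, -0.24 and -0.30 to 0.15, 0.22 and 0.38, without overlap (0.69 ± 0.17; limma adjusted p = 0.0049). RPT5A went from 2.90, 3.03 and 3.19 to 3.28, 3.34 and 3.43 (0.31 ± 0.12; limma adjusted p = 0.04), also separate. RPT3 had a similar difference of 0.42 ± 0.17 that missed the threshold (adjusted p = 0.055). The RPT genes RPT1A and RPT2a, both called higher in Col, stood at -0.12 ± 0.10 and 0.13 ± 0.11 and were not called. RPN12a, whose Arabidopsis mutant is known for altered cytokinin responses, went from 3.11, 3.12 and 3.15 to 2.72, 2.78 and 2.82 (-0.35 ± 0.09; limma adjusted p = 0.0073). Its groups were far apart. RPN8A fell by 0.38 ± 0.14 (limma adjusted p = 0.033), with DAE28 arrays at -0.43, -0.47 and 0.00 and DAE14 arrays at 0.16, -0.05 and 0.12. The third old leaf overlapped the young leaves there.

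The falls in gvs1-1 depended on the scaling and the slide. Under quantile normalization 6 members rose and 6 fell, and the same comparison in the authors' deposited table, whose values were tested as another setting, gave 6 and 5. With slide as a block 0 rose and 4 fell, and within slide 3, which holds 1 DAE14 array, 0 rose and 2 fell. Set against the median of all genes, the core median was -0.28 here, -0.15 under quantile normalization and -0.10 in the authors' table, while the regulatory median was -0.18, -0.04 and close to 0. The number of rises came to 1 without Col DAE14 array 1 or 3, gvs1-1 DAE14 array 1 or 2 or any gvs1-1 DAE28 array, and the number of falls to 5 or 6 without gvs1-1 DAE14 array 3 or gvs1-1 DAE28 array 1 or 2. Without gvs1-1 DAE14 array 1, the falls of PAE1, PAG1, PBA1 and RPN8A also lost their calls. PAC1, PAF2, PBB1, PBE1, RPN12a and RPT5B kept their calls without each array in turn.

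The age comparisons use different arrays but share 1 estimate of the spread per gene, so their calls are not fully independent. RPT5A and RPT5B rose in both genotypes, which is 2 of the 7 rises in Col and 2 of the 3 in gvs1-1. The call of RPT5A in gvs1-1 ended when Col DAE14 array 1 or 3 or Col DAE28 array 2 was left out. PAC1, PAF2 and PBE1 fell in both, 3 of the 6 falls in Col and 3 of the 10 in gvs1-1. No member was called in opposite directions, and 14 members were called in neither genotype, among them PAF1, PBB2, RPT4A and RPN6. Of all genes 72.0% were called with age in Col and 61.4% in gvs1-1. The share of all genes called in both or in neither was not counted, so these overlaps have no background beside them.

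On the arrays of old Col leaves the median of the regulatory genes stood higher relative to that of the core genes than on the other arrays. The per-array median of the regulatory members minus that of the core members was -0.02, 0.06 and -0.04 on the Col DAE14 arrays and 0.16, 0.16 and 0.10 on the Col DAE28 arrays. In gvs1-1 it was -0.05, -0.11 and 0.01 at DAE14 and 0.05, 0.02 and 0.03 at DAE28. All 3 Col DAE28 arrays were thus above the other 9 arrays, and in each genotype the stages were separate. The RPN class did not share the higher level. On the Col DAE28 arrays the RPT medians were 0.40, 0.35 and 0.19. The RPN medians there, 0.02, -0.15 and -0.22, lay below the core medians of 0.04, 0.03 and -0.16. The regulatory minus core difference is taken within each array, so a shift of the whole array's scale leaves it as it is. It carries no test, since the members were chosen with results of these arrays known.

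**Figure D3:**
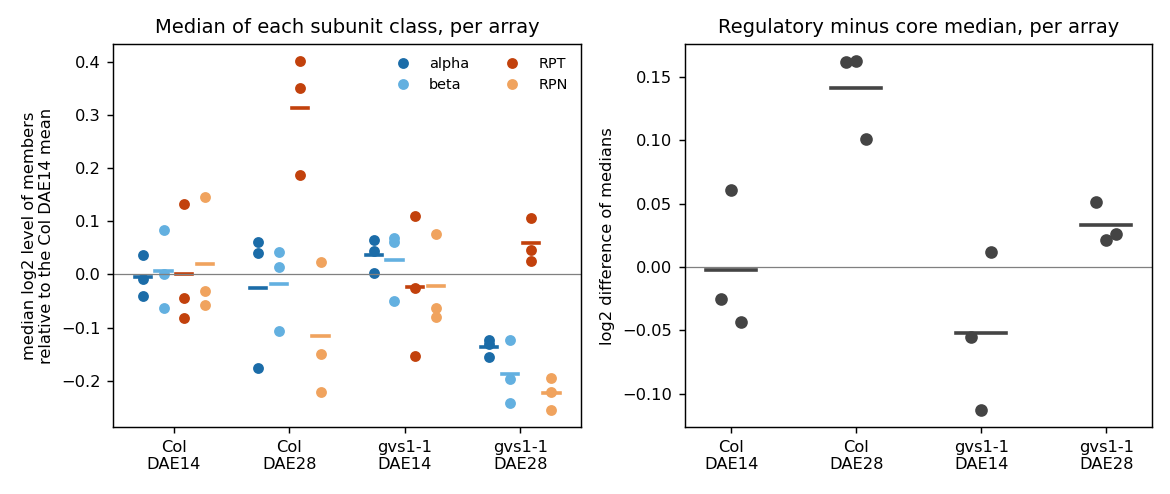
Left, median log2 level of the alpha, beta, RPT and RPN members on each array, each member taken relative to its Col DAE14 mean; right, the regulatory median minus the core median on each array. Points are arrays and bars are means of 3 arrays; the RPT medians of the Col DAE28 arrays, 0.19 to 0.40, lie highest, and the right panel runs from -0.11 to 0.16.

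**Figure D4:**
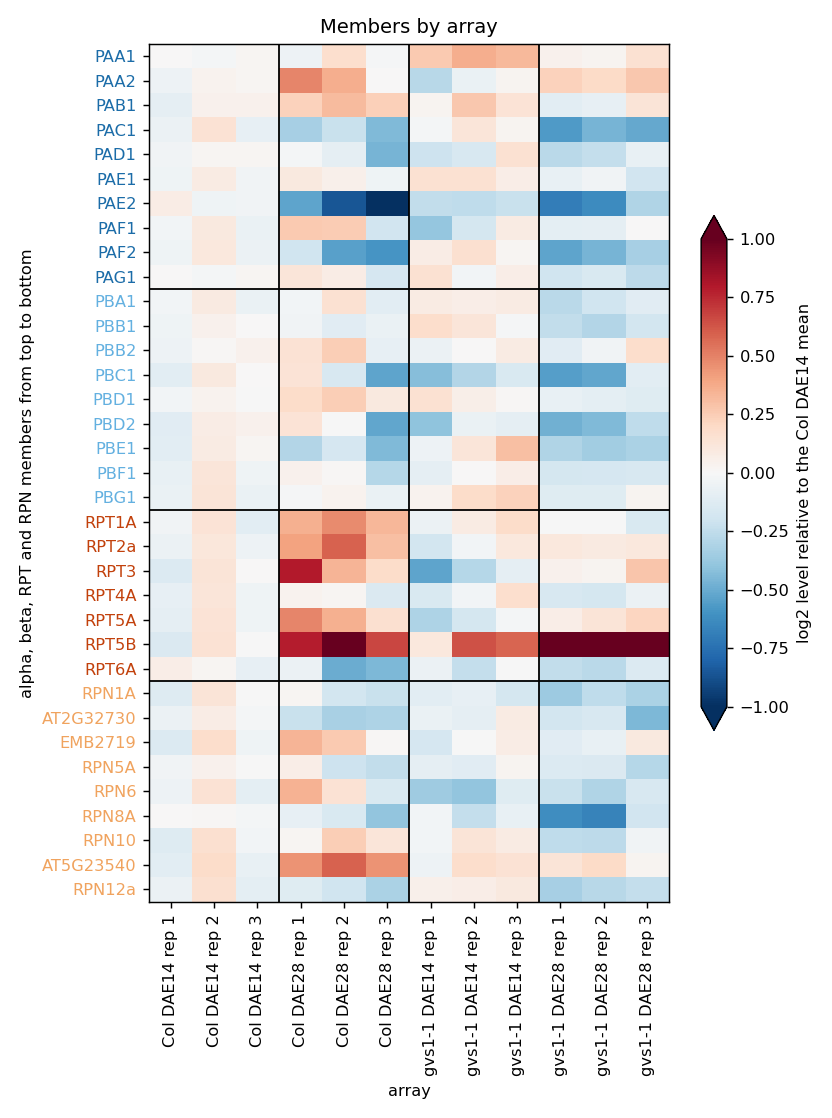
Log2 level of the 35 members (lines, grouped as alpha, beta, RPT and RPN) on the 12 arrays (columns), relative to each gene's Col DAE14 mean, with colours ending at 1 either way. RPT5B turns red in both genotypes at DAE28, PAE2 is darkest blue on the Col DAE28 arrays, and most members stay pale.

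Between the genotypes in young leaves, at DAE14, 0 of 35 members were called in either direction (limma), and 2 had an unadjusted p under 0.05. The count was 0 in each of the other settings tried as well. Of all genes 0.313% were called at this stage, 0.0470% higher and 0.266% lower in gvs1-1. The interval lay within 2-fold for 35 of 35 members, against 79.6% of all genes, so a 2-fold difference between genotypes was outside the interval of each member. The 2 members with an unadjusted p under 0.05 were PAA1 and RPT5B. PAA1 lay at 0.82, 0.79 and 0.83 in Col and at 1.07, 1.18 and 1.14 in gvs1-1, a difference of 0.32 ± 0.09 (limma adjusted p = 0.15). The genotypes were separate for PAA1, whereas RPT5B, at 0.44 ± 0.17 (limma adjusted p = 0.23), overlapped. The most negative differences were -0.30 ± 0.17 in RPT3 and -0.29 ± 0.18 in PBC1, both uncalled.

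In old leaves, at DAE28, gvs1-1 had lower levels than Col for 5 members and higher levels for 0. Of all genes 17.9% were called higher, 15.1% lower and 33.1% in either direction, so the share of members called, 5 of 35, was below the background. Median centring turned the split of all genes from 3437 higher and 2900 lower to 2646 and 3438. Below 0 lay 29 of 35 members, against 46.5% of all genes, with a core median of -0.13 and a regulatory median of -0.22 beside 0.04 over all genes. The genotypes were separate for 11 members, all of them lower in gvs1-1, against 45.7% of all genes separate in either direction. The interval lay within 2-fold for 35 of 35 members, against 66.3%.

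RPT1A had the most negative difference: 2.87, 2.99 and 2.85 in Col against 2.51, 2.52 and 2.37 in gvs1-1, well separated (-0.44 ± 0.10; limma adjusted p = 0.0089). RPT2a lay at 3.82, 4.01 and 3.72 in Col and at 3.52, 3.51 and 3.53 in gvs1-1 (-0.33 ± 0.11; limma adjusted p = 0.036). The gvs1-1 arrays for RPT2a fell within a narrow range below all Col arrays. AT5G23540 read 3.84, 3.98 and 3.84 in Col and 3.52, 3.58 and 3.42 in gvs1-1 (-0.38 ± 0.11; limma adjusted p = 0.021). All 3 of these genes had risen with age in Col and were not called with age in gvs1-1, comparisons that share DAE28 arrays with this one. Among core genes, PBD1 read 2.05, 2.11 and 1.96 in Col and 1.79, 1.77 and 1.74 in gvs1-1 (-0.28 ± 0.08; limma adjusted p = 0.021). PAB1 read 0.93, 1.01 and 0.93 and 0.59, 0.61 and 0.82 (-0.28 ± 0.10; limma adjusted p = 0.049). Both were separate between the genotypes. RPN10 just missed the threshold at -0.31 ± 0.11 (adjusted p = 0.052). The most positive differences, uncalled, were 0.28 ± 0.15 in PAE2 and 0.27 ± 0.17 in RPT5B, and the smallest was that of PAF2 at 0.00 ± 0.12. The second probe of PAE2 was called higher in gvs1-1 here, at 0.51 ± 0.09 (limma adjusted p = 0.0031). With slide as a block 0 of the 5 calls remained, and within the first scan day, which has 1 Col DAE28 array, 3 members were called, none of them among the 5. Within that day the 5 genes differed by -0.26 to -0.40, and with the slide block by -0.18 to -0.63. Leaving out the second Col DAE28 array left 1 of the 5 calls. Leaving out the first or second gvs1-1 DAE28 array left 2, and leaving out Col DAE14 array 1 or 3 left 3. Without the third gvs1-1 DAE28 array the calls of AT5G23540, PBD1 and RPT2a ended, and without the first Col DAE28 array those of PAB1 and RPT2a. RPT1A kept its call without each array.

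The interaction, which sets the age change of gvs1-1 against that of Col, called 2 members lower and 0 higher, against 8.74% and 9.91% of all genes and 18.7% in either direction. Median centring changed the counts over all genes from 1898 higher and 1674 lower to 1129 and 2405. RPT1A differed by -0.51 ± 0.14 (limma adjusted p = 0.036), from a rise of 0.39 in Col and a difference of -0.12 in gvs1-1; of its 3 kept probes 1 was called. PBD1 differed by -0.35 ± 0.11 (limma adjusted p = 0.049), from 0.18 in Col and -0.18 in gvs1-1. Below 0 lay 28 of 35 members, against 45.2% of all genes. AT5G23540 and PAB1 missed the threshold at -0.47 ± 0.15 and -0.43 ± 0.14 (adjusted p = 0.054 and 0.056). PAE2 was the most positive at 0.52 ± 0.21 (adjusted p = 0.1), and RPT6A the most positive regulatory gene at 0.22 ± 0.18. The regulatory median was -0.12 and the core median -0.15, beside 0.07 over all genes. Neither call passed with slide or scan day as a block, where RPT1A stood at -0.59 and PBD1 at -0.30 (limma adjusted p = 0.12 and 0.27 with the slide block). With 1 array left out, PBD1 kept its call only without Col DAE28 array 3. RPT1A kept its call without that array, Col DAE14 array 2, Col DAE28 array 1 or gvs1-1 DAE14 array 1, and lost it without any other.

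Several subunits are encoded by a pair of genes, and the age changes of the 2 genes differed in 8 of 12 pairs. For these pairs, all with both genes annotated, the within-array difference of the first minus the second gene was compared between stages, with the stage labels permuted within each genotype (exact, two-sided, 400 arrangements, smallest possible p 0.005). In the pairs below the p-values are adjusted over the 12 pairs. Other pairs of genes were not compared in this way. Of all genes 72.0% were called with age in Col and 61.4% in gvs1-1, so the count of 8 is not shown to be particular to these pairs. Of these pairs 6 were taken up after the values had been seen, because their second gene lies outside the 35. Whether a probe also binds the transcript of the other gene was not tested, since the files used here hold no probe sequences.

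Among the core pairs, PAF1 and PAF2 parted in both genotypes. PAF1 differed by 0.11 with age in Col and 0.10 in gvs1-1, and PAF2 by -0.44 and -0.53 (exact permutation p = 0.005, adjusted 0.012). PAE1 stayed at 0.03 in Col while PAE2 stood at -0.82, but in gvs1-1 they were close at -0.22 and -0.30 (exact permutation p = 0.03, adjusted 0.045). For PAA1 and PAA2 the order was opposite, with the second gene more positive, at 0.04 and 0.29 in Col and -0.24 and 0.34 in gvs1-1 (exact permutation p = 0.01, adjusted 0.02). PBB1 lay below PBB2 in both genotypes, by -0.17 and -0.33 (exact permutation p = 0.02, adjusted 0.034). A second kept probe of PBB1 stood at 0.10 in Col and -0.42 in gvs1-1, so in Col the order of this pair depends on the probe taken. The pairs PAD1 and PAD2, PBC1 and PBC2, and PBD1 and PBD2 did not pass (exact permutation, adjusted p = 0.70, 0.08 and 0.25).

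Of the 5 regulatory pairs compared, 4 parted, and the gene outside the list of 35 was the lower one in 3 of them. This order holds for the pairs compared only, since further subunit loci without a subunit symbol were not paired. Of the 21 further loci described below, 7 rose and 8 fell with age in Col. Among those left unpaired, AT1G53780, AT5G20000 and MEE34 lay higher on every Col DAE28 array than on any Col DAE14 array. RPN12b stood at -1.48 in Col and -1.34 in gvs1-1, against -0.21 and -0.35 for RPN12a. Its levels were near the dim end of the array, from -4.55 to -4.19 on the Col DAE14 arrays and from -6.21 to -5.47 on the Col DAE28 arrays. RPT2b fell by 0.68 in Col, where RPT2a rose by 0.43, and in gvs1-1 they stood at -0.55 and 0.13. RPN5B stood at -0.89 and -0.53, against -0.13 in both genotypes for RPN5A. RPT5B exceeded RPT5A by 0.53 in Col and 0.38 in gvs1-1. Each of these 4 pairs reached the smallest p the design allows (exact permutation p = 0.005, adjusted 0.012). RPN1A and RPN1B did not differ detectably, at -0.13 and -0.15 in Col (exact permutation p = 0.37, adjusted 0.40).

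**Figure D5:**
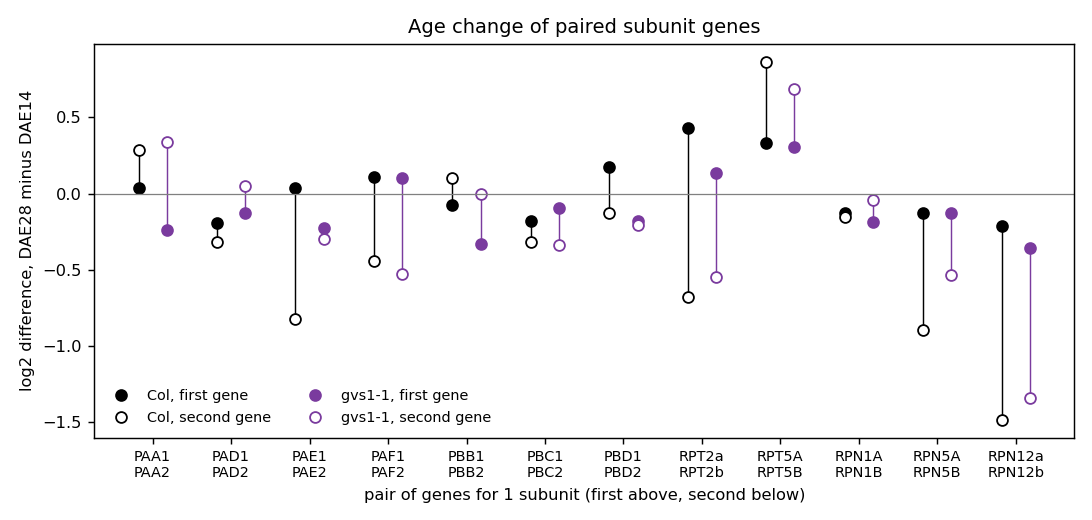
Log2 difference between DAE28 and DAE14 of both genes of 12 pairs that encode the same subunit, in Col (black) and gvs1-1 (purple); filled circles are the first gene, open circles the second, and a line joins them. The longest lines belong to RPN12a with RPN12b and RPT2a with RPT2b, and the lines of RPN1A with RPN1B are among the shortest.

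Another 21 loci were listed as further 26S subunit genes. With age in Col 7 of these rose and 8 fell, in gvs1-1 4 rose and 6 fell, at DAE28 2 were higher and 4 lower in gvs1-1, and at DAE14 0 were called. That is 71.4%, 47.6% and 28.6% of the list called, beside 72.0%, 61.4% and 33.1% of all genes. With slide as a block 1 rose and 5 fell in gvs1-1, and 0 were higher and 1 lower at DAE28. The most positive age change was that of AT1G53780, at 1.28 ± 0.21 in Col and 1.01 ± 0.21 in gvs1-1, and the most negative that of RPN12b. AT5G20000 rose in Col by 0.70 ± 0.10 and stood at -0.22 ± 0.10 in gvs1-1. It was lower in gvs1-1 at DAE28, at 1.81, 1.88 and 1.85 against 2.79, 2.64 and 2.66 in Col without overlap (-0.85 ± 0.10; limma adjusted p = 0.00041). PAD2 was higher in gvs1-1 at that stage (0.38 ± 0.10; limma adjusted p = 0.016). AT5G20000, MEE34 and DSS1(V) were the 3 loci of this list that passed the interaction test, at -0.92 ± 0.14, -0.52 ± 0.11 and -0.49 ± 0.13.

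Of 9 genes for proteasome-associated proteins and assembly factors 8 were measured, and 5 rose with age in Col while 0 fell. The share called was 62.5% in Col and 25% in gvs1-1, beside 72.0% and 61.4% of all genes. UBP6, a deubiquitinase that binds the proteasome, went from 1.12, 1.37 and 1.19 to 1.90, 1.92 and 1.80 in Col (0.65 ± 0.09; limma adjusted p = 9.7e-05) and from 1.25, 1.34 and 1.29 to 1.22, 1.38 and 1.35 in gvs1-1 (0.03 ± 0.09; adjusted p = 0.81). The Col stages were separate and the gvs1-1 stages overlapped, and the interaction passed at -0.62 ± 0.13 (limma adjusted p = 0.012). At DAE28 UBP6 was lower in gvs1-1 by 0.56 ± 0.09 (limma adjusted p = 0.0018). This difference was -0.54 with slide as a block and did not pass (limma adjusted p = 0.088), nor did the interaction. AT5G38650 rose by 0.60 ± 0.11 in Col and AT3G53970 by 0.54 ± 0.09 in gvs1-1, where 2 of 8 rose and 0 fell.

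Ubiquitylated proteins reach the proteasome through shuttle factors and the segregase CDC48, and of 10 such genes 6 rose and 2 fell in Col, 4 rose and 1 fell in gvs1-1. The share called was 80% and 50%, beside 72.0% and 61.4% of all genes, and with slide as a block or within scan day 1 none of this list rose in gvs1-1. CDC48A, an ATPase that pulls substrates out of complexes and membranes, went from 3.47, 3.74 and 3.50 to 4.76, 4.60 and 4.23 in Col (0.96 ± 0.16; limma adjusted p = 0.0004). It rose in gvs1-1 by 0.63 ± 0.16 and was lower there at DAE28 (-0.47 ± 0.16; limma adjusted p = 0.049). CDC48B rose by 1.06 ± 0.28 in Col and DSK2b by 0.59 ± 0.18 in gvs1-1. The shuttle gene RAD23D was lower in gvs1-1 at DAE28 (-0.30 ± 0.08), 1 of 3 genes of this list called lower and 0 higher there, or 30% beside 33.1% of all genes. None of this list was called at DAE28 with slide as a block. In the ubiquitin list, 2 of 7 genes rose and 2 fell in Col, and 2 rose and 3 fell in gvs1-1. The share called was 57.1% and 71.4%, beside 72.0% and 61.4% of all genes. The split turned with the setting: the authors' deposited table gave 5 rises and 0 falls in both genotypes, and slide as a block gave 1 rise and 2 falls in Col and 0 and 2 in gvs1-1. The polyubiquitin genes UBQ10 and UBQ14 had differences of -0.999 ± 0.16 and -0.85 ± 0.16 in Col, but under quantile normalization these were 0.60 and 0.76 and the authors' deposited table gave 0.78 and 0.33, so their direction rests on the scaling. UBQ4 and UBQ3 rose in gvs1-1 by 0.69 ± 0.19 and 0.63 ± 0.16, and the ubiquitin-activating enzyme gene UBA1 was lower in gvs1-1 at DAE28 (-0.28 ± 0.09; limma adjusted p = 0.041). None of the ubiquitin list was called at DAE28 with slide as a block.

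NAC053 and ANAC078 encode transcription factors known in Arabidopsis to activate proteasome subunit genes when the proteasome is impaired, and both rose with age. NAC053 lay at -0.20, 0.29 and 0.05 on the Col DAE14 arrays and at 2.16, 2.29 and 2.02 on the Col DAE28 arrays (2.11 ± 0.19; limma adjusted p = 4.7e-06). In gvs1-1 it went from -0.24, 0.43 and 0.28 to 1.58, 1.18 and 1.53 (1.27 ± 0.19; limma adjusted p = 0.00029). Both pairs of stages were separate, and the DAE28 arrays of gvs1-1 were below those of Col (-0.72 ± 0.19; limma adjusted p = 0.017). ANAC078 had the same order with smaller steps: 0.96 ± 0.10 in Col, 0.55 ± 0.10 in gvs1-1 and -0.34 ± 0.10 between genotypes at DAE28 (limma adjusted p = 1.0e-05, 0.00085 and 0.026). The interaction passed for neither gene (-0.84 ± 0.27 and -0.42 ± 0.14; adjusted p = 0.058 and 0.064). The age changes of both passed with slide as a block, and the genotype differences at DAE28 did not (-0.91 and -0.24; limma adjusted p = 0.17 and 0.41).

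Markers of leaf cell types moved with the same comparisons. Of 4 mesophyll markers 4 fell with age in both genotypes, with median differences of -1.62 in Col and -0.58 in gvs1-1, and of 6 vascular markers 5 fell in both, beside 36.3% and 30.0% of all genes. In the interaction 4 of 4 mesophyll markers were called higher, at 0.97 to 1.15, and 2 of 4 epidermis and trichome markers, beside 9.91% of all genes. At DAE14 the 4 mesophyll markers lay lower in gvs1-1 without overlap, with a median of -0.60, and 1 of them was called, beside 0.266% of all genes. The mesophyll signals lay in the bright range that also holds UBQ10 and UBQ14, with Col DAE14 means of 8.23 and 7.64. UBQ10 and UBQ14 were also lower in gvs1-1 at DAE14, with means of 7.70 and 7.21. Their age changes turned direction with the scaling, and no other setting is given here for the markers. Of 4 epidermis and trichome markers 4 fell in Col and 3 in gvs1-1. The 4 guard cell markers went both ways with age in Col, where 1 rose and 1 fell, beside 35.7% and 36.3% of all genes. In gvs1-1 0 of them rose and 2 fell, beside 31.4% and 30.0%. In the interaction 0 of them were higher and 1 lower, beside 9.91% and 8.74%. At DAE28, 2 of 4 mesophyll markers and 1 of 4 epidermis and trichome markers were higher in gvs1-1 and 0 lower, beside 17.9% and 15.1% of all genes. Of the vascular markers 1 was higher and 1 lower, and of 4 guard cell markers 1 was lower. The mean log2 level of the mesophyll list was 8.29 to 8.54 on the Col DAE14 arrays and 6.65 to 6.72 at DAE28, and 7.62 to 7.82 and 6.95 to 7.30 in gvs1-1. That of the vascular list was -0.14 to 0.25 and -3.62 to -2.80 in Col, and -0.02 to 0.28 and -3.72 to -2.41 in gvs1-1. That of the epidermis and trichome list was -1.06 to -0.998 and -2.95 to -2.64 in Col, and -1.44 to -1.23 and -2.46 to -2.08 in gvs1-1. Of the guard cell list it was -1.36 to -1.10 and -1.60 to -0.80 in Col, and -1.25 to -1.06 and -1.77 to -1.59 in gvs1-1. Their part in the results above was not tested.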

How the data were processed

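Each of 12 leaf samples (4 groups of 3) was hybridised to 1 one-colour Agilent array; RNA was amplified and labelled with Cy3, per the labels' protocols. The deposited array files hold spot intensities on a linear scale made with Agilent Feature Extraction. The file headers name its version 11.5.1.1, and the submitters' processing notes name 11.5. The flags for outlier, saturated and well-above-background spots are scores of the authors' extraction software, per the file headers. The authors also deposited a table of log2 values for 21266 loci; how its arrays were scaled is not stated in any source used here, its column medians lay between 8.86 and 8.91, and it served as an alternative.

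From these files, 43603 probes remained without controls, and accessions matched 34348 of them to 25410 loci of the TAIR10.1 table from RefSeq. The log2 processed signal was taken relative to the 75th percentile of each array. Probes with an outlier mark (166) were left out, 0 were saturated, and kept probes were well above background throughout the 3 arrays of some group. The probe with the highest mean stood for a gene, which left 19152 genes; 7 members have several kept probes, none called in opposite directions. The number of arrays limits the precision.

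The test was limma's (version 3.58.1, R 4.3.3, lmFit and eBayes) in 1 fit of 4 group means over all 12 arrays, two-sided, with Benjamini-Hochberg adjustment over all genes and a threshold of 0.05; values are log2 differences ± SE, and intervals are at 95%. The p-values measure only the spread between these samples. Where a slide, a scan day or an omission left 1 array in a group, it was assumed to vary like the other groups. The scripts were tested on simulated data, where fewer genes with a 2-fold change were called than first required. That requirement was lowered after the result was seen. Few genes were changed in the simulation, which makes its adjusted threshold stricter than in the age comparisons, but power for small changes is limited. Gene pairs were compared by an exact permutation test. Alternatives were quantile normalization, median centring, normexp with an offset of 50 on the median signal (the mean signal was not used here) less the median background, other filters and probe summaries, slide, scan day and replicate number as blocks, single slides and 1 scan day alone, the authors' table, and leaving out each array.

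The members and gene lists were chosen with earlier results of these data known, and the lists beyond the 35 were drawn from general knowledge. All members could be named. Array values follow for the most positive and most negative member per comparison and particle, for called members and for gene pairs; of the other lists, NAC053, ANAC078 and at most 2 called genes per list and comparison were named, and 1 such result is not reported here. DSS1(V) falls outside this rule and was named after its values were seen. No sequences or coordinates are given, since the reference used here holds no sequences and its build differs in name from that of the files.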

Additional observations from a re-analysis of the deposited data

Results flagged for a closer look

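The age change differed between gvs1-1 and Col in the test of the interaction for 2 members and 4 further proteasome genes, each given as the change in gvs1-1 minus that in Col on the log2 scale. The members were RPT1A at -0.51 and PBD1 at -0.35 (limma adjusted p = 0.036 and 0.049). The others were AT5G20000 at -0.92, UBP6 at -0.62, MEE34 at -0.52 and DSS1(V) at -0.49 (limma adjusted p = 0.0039, 0.012, 0.014 and 0.027). With slide as a block AT5G20000 stood at -1.08 and MEE34 at -0.63 and passed (limma adjusted p = 0.023 and 0.049), and RPT1A, PBD1, UBP6 and DSS1(V) did not pass.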

How the results depend on the processing

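Of the calls on members, PAE2 and RPT5B in Col were kept in all settings tried, and 0 of 13 in gvs1-1, 0 of 5 between genotypes at DAE28 and 0 of 2 in the interaction were. Signal over background and 3 arrays per group limit what can be called. A sign change was counted as a reversal only where the value passed in either setting, a rule set after the values were seen. With slide as a block the sign turned for 8 members for age in Col and for 17 at DAE14, all of them called in neither setting. The only-the-groups-compared fit is the same as the first for the interaction, and slide 2 and the second scan day hold no comparison.

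Without 1 array each, the number of rises in Col ran from 4 to 8 and of falls from 3 to 7, with a core median from -0.0502 to 0.0618 and a regulatory median from 0.07 to 0.20. In gvs1-1 rises ran from 1 to 4 and falls from 5 to 11, with medians from -0.24 to -0.19 and from -0.13 to -0.05. At DAE14 both counts stayed at 0. At DAE28 higher calls ran from 0 to 1 and lower calls from 1 to 7, with medians from -0.19 to -0.07 and from -0.30 to -0.13. In the interaction higher calls ran from 0 to 1 and lower calls from 0 to 3, with a core median from -0.23 to -0.0948 and a regulatory median from -0.19 to -0.08.

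For age in Col (7 rises, 6 falls, medians -0.01 and 0.12), median centring gave 11 rises, 1 fall and medians of 0.16 and 0.29. Slide as a block gave 1 fall, scan day as a block 3 falls, slide 1 alone 4 rises and 1 fall, and scan day 1 alone 1 fall. For age in gvs1-1 (3 rises, 10 falls, medians -0.22 and -0.12), quantile normalization gave 6 rises, 6 falls and medians of -0.0260 and 0.0763, and the authors' table gave 6 rises, 5 falls and medians of -0.0327 and 0.0680. Normexp gave 1 rise and 5 falls, no filter on dim probes 1 and 6, median centring 5 falls and only the groups compared 6 falls. Slide as a block gave 0 rises and 4 falls, scan day as a block 1 rise, slide 3 alone 0 and 2, and scan day 1 alone 1 and 3. At DAE14 the regulatory median of -0.03 became 0.0777 within scan day 1.

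At DAE28 (0 higher, 5 lower, medians -0.13 and -0.22), the mean over probes and the authors' table each gave 1 higher call. Lower calls were 2 with normexp, 3 without a filter, 2 with only the groups compared, 0 with slide as a block, and 3 with scan day as a block or within scan day 1. The core median was -0.21 under median centring and -0.0485 in the authors' table, and the regulatory median -0.33 with slide as a block. In the interaction (2 lower, medians -0.15 and -0.12), lower calls were 4 under median centring or with only probes above background on every array. They were 1 with the mean over probes or the authors' table, and 0 under quantile normalization, normexp, no filter, slide as a block, scan day as a block and within scan day 1. Its core and regulatory medians were -0.29 and -0.27 under median centring, and -0.28 and -0.33 with either block and within scan day 1. The cause of these shifts was not tested. Over all genes, counts that moved by over 1.5 times were 10893 falls in Col without a filter against 6944, and 3259 rises and 3692 falls in gvs1-1 within slide 3 against 6007 and 5743. At DAE28, slide as a block gave 821 higher and 942 lower against 3437 and 2900, normexp 1647 higher, and scan day 1 alone 1618 lower. Calls at DAE14 ran from 1 to 38 higher and from 0 to 239 lower against 9 and 51, and in the interaction from 558 to 2708 higher and from 221 to 2405 lower against 1898 and 1674.

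Reversals were PBG1 in Col, at 0.22 in the authors' table against -0.01, PAG1 in gvs1-1, at 0.0149 there against -0.27, and PBA1 in gvs1-1, near 0 at 0.0006 under quantile normalization against -0.27. In Col, UBA2 stood at -0.0593 with the mean over probes against 0.42. UBQ10 reversed under quantile normalization and in the authors' table with age in Col (0.60 and 0.78) and in gvs1-1 (0.35 and 0.52), as did UBQ14 in Col (0.76 and 0.33) and in gvs1-1 (0.37 and 0.19, and 0.21 with the mean over probes) and UBQ11 in gvs1-1 (0.72 and 0.59). At DAE28 RPN5B stood at -0.11 with normexp and UBQ10 at -0.31 in the authors' table, and UBQ14 in the interaction at -0.39 under quantile normalization. The difference between the genes of each of the 8 pairs that passed kept its sign in all 24 settings in which both comparisons could be fitted.

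The groups share replicate numbers, and the samples were not treated as paired by them. The deviations of same-numbered samples correlated at -0.27 to 0.51 across genes, over 0.1 in 4 of 18 pairs. Between the genotypes at DAE14 they correlated at 0.51, 0.38 and -0.10 for numbers 1, 2 and 3. Such correlations cannot decide whether the numbers pair the samples. With the replicate block, 6 rose and 6 fell in Col, 1 rose and 9 fell in gvs1-1, 5 were lower at DAE28 and 2 in the interaction, but these are not all the same genes: PAB1 lost its call at DAE28 and PBD1 in the interaction, as did RPT3 in Col and PAA2, RPN8A and RPT5A in gvs1-1.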
